A study of Mus musculus with 6 samples.

Results

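Heparan sulfate is a chain of sugars attached to core proteins at the cell surface and in the matrix, and the 10 genes described here encode mouse enzymes that build the chain, add sulfate to it or remove sulfate from it. They are the polymerases Ext1 and Ext2, the N-deacetylase and N-sulfotransferases Ndst1 and Ndst2, the O-sulfotransferases Hs2st1, Hs6st1, Hs6st2 and Hs3st1, and the sulfatases Sulf1 and Sulf2. They were chosen by name, and 9 of the 10 were matched to the arrays, out of 19938 genes on the arrays that have a probe set with a single symbol. Ndst1 was not analysed here. Where a gene has several probe sets, the rule took the brightest by its mean on the 6 arrays, but each of the 9 genes has 1 probe set, so no choice between probe sets was made. The list itself was drawn up with earlier results of these data known, Sulf2 among them. All 9 passed the filter on low intensity and were tested among 17145 genes.

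The cells were NIH/3T3, an immortalized mouse fibroblast line, stably expressing an HA-tagged mouse RPB1, the catalytic subunit of RNA polymerase II. The 3 wild type samples carried wild type RPB1, and the 3 8KR samples carried RPB1 in which the lysines at the seventh position of the C-terminal repeats were changed to arginine, which prevents their acetylation. The medium of both groups was DMEM that held bovine calf serum (10%) and α-amanitin (2 µg/ml), an inhibitor of RNA polymerase II. The comparison asked which genes depend on acetylation of RPB1. The titles call the samples biological replicates. The sources used here do not say whether each group came from 1 clone or from a mixed population of transfected cells. The p-values therefore set the group difference against the spread between these samples only. Any other difference between the cells of the groups cannot be told apart from the 8KR change.

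Heparan sulfate chains are extended by a complex of EXT1 and EXT2, which adds glucuronic acid and N-acetylglucosamine in turn. Stretches of the chain are then changed in order, first by NDST enzymes that replace acetyl groups with sulfate, and then by enzymes that add sulfate at the 2-O, 6-O and, rarely, 3-O positions. Outside the cell, SULF1 and SULF2 remove 6-O sulfates from finished chains. The pattern of sulfate sets which growth factors a chain can hold, and fibroblasts display such chains on syndecans and glypicans.

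The arrays were alike in scale, with median log2 intensities of 4.49 to 4.54, and arrays correlated at 0.982 to 0.984 inside a group and at 0.975 to 0.978 across groups. Of 10 fibroblast markers, 9 were tested and had group means of 7.15 to 12.11, and the tested epithelial, endothelial, leukocyte, muscle and nerve markers had group means of 2.96 to 5.91, ranges that come from different probes and are not a comparison of levels. Of the 9 fibroblast markers, 1 passed. The collagen gene Col3a1 fell (log2 difference -0.52, adjusted p = 0.0364 from limma) but did not pass with any 1 array left out (adjusted p from 0.0731 to 0.112). The median log2 difference of the 9 was -0.19, and 4 had an unadjusted p under 0.05, all of them lower in 8KR cells. The groups did not overlap for 7 of the 9. Over all genes tested, 5.39% passed, 21.8% had an unadjusted p under 0.05 and 29.7% did not overlap between groups. Of the markers of other cell types none passed by limma and 3 had an unadjusted p under 0.05 (Cldn4, Tek and Des), and the smallest adjusted p-values in each list were those of Cldn4 (log2 difference 0.25, adjusted p = 0.191), Tek (-0.26, 0.124), Lyz2 (-0.23, 0.342) and Des (-0.74, 0.0945). Among the defining markers of other cell types, Ptprc, Itgam, Kdr and Emcn had no group mean above 3.0, the level that the study's methods treat as background. Polr2a, which encodes RPB1, had a log2 difference of 0.03 (8KR minus wild type, standard error 0.07). The groups also differed in Y-linked genes, with Eif2s3y rising from 2.56 to 5.90, Kdm5d from 3.12 to 4.84 and Uty from 2.38 to 3.93 in 8KR cells (adjusted p = 5.95e-04, 0.00908 and 0.00249 from limma). The wild type means of Eif2s3y and Uty lay below the background level. The part of these differences in the fibroblast markers and the Y-linked genes in the results below was not tested.

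In 8KR cells, 2 of the 9 heparan sulfate enzyme genes rose, 2 fell and 5 did not pass the test at an adjusted p under 0.05 (limma with Benjamini-Hochberg adjustment over all probe sets tested). The 6-O-sulfotransferase genes Hs6st1 and Hs6st2 rose 1.62-fold and 1.56-fold. The 6-O-sulfatase gene Sulf2 was 6.42-fold lower and the polymerase gene Ext1 was 1.34-fold lower. Among all 17145 genes tested, 5.39% passed, with 2.33% of the genes tested higher and 3.06% lower in 8KR cells. The median log2 difference of the 9 genes was -0.08, against 0.01 over all genes tested. Because of how the 9 genes were listed, their count of calls is a description and not a test of the pathway. The RNA came from whole cultures, so a change in the share of cells that express a gene and a change in RNA per cell cannot be told apart.

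**Figure D1:**
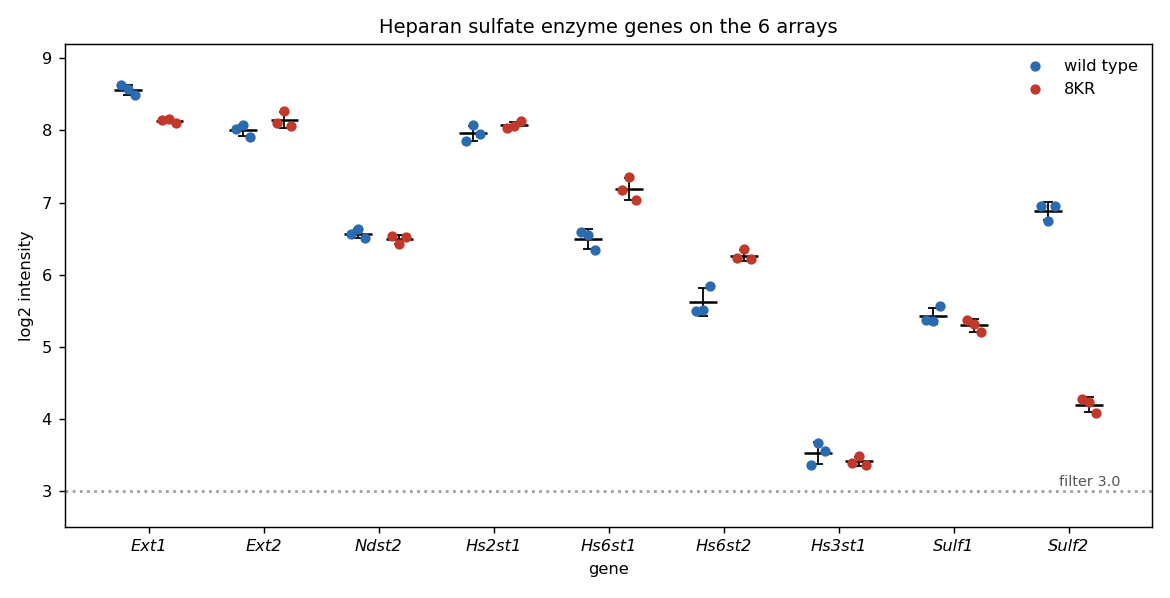
Log2 intensity (vertical axis) of the 9 heparan sulfate enzyme genes (horizontal axis) on each array (blue points for wild type, red points for 8KR, n = 3 each), where a black bar marks each group's mean and whiskers mark its SD. Sulf2 and Ext1 lie lower and Hs6st1 and Hs6st2 lie higher on all 3 8KR arrays, whereas the other 5 genes overlap between groups, and the dotted line marks the filter at 3.0. Heights of different genes come from different probes and are not compared.

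Sulf2, which encodes an extracellular sulfatase that trims 6-O sulfates, was the gene with the largest difference of the 9. It had log2 intensities of 6.95, 6.74 and 6.95 in wild type cells and of 4.28, 4.23 and 4.08 in 8KR cells. The groups were far apart, with a gap many times the spread within either of them. The mean went from 6.88 ± 0.12 (SD, n = 3) to 4.20 ± 0.11 (SD, n = 3), a log2 difference of -2.68 (standard error 0.10, 95% interval -2.93 to -2.44, adjusted p = 5.04e-04 from limma). Of all genes that passed, 8 had a more negative difference. The remaining signal in 8KR cells lay above the background level of 3.0 but below the medians of the 8KR arrays, 4.53 to 4.54. How much of this signal is Sulf2 RNA was not tested. With any 1 of the 6 arrays left out, Sulf2 still passed, with log2 differences of -2.76 to -2.62 and adjusted p-values of 0.00433 to 0.00806 from limma.

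Sulf1, the other sulfatase of this kind, did not pass. It had log2 intensities of 5.37, 5.36 and 5.56 in wild type cells and 5.37, 5.32 and 5.20 in 8KR cells. The groups overlapped, and the log2 difference was -0.13 (95% interval -0.36 to 0.09, adjusted p = 0.494 from limma). Within each array, Sulf2 minus Sulf1 was 1.58, 1.37 and 1.39 in wild type cells and -1.09, -1.08 and -1.12 in 8KR cells on the log2 scale. Between groups, Sulf2 minus Sulf1 changed by -2.55 on the log2 scale, or 5.85-fold. This change had p = 0.1 in a two-sided exact permutation test over the 6 arrays. That is the smallest p that 3 arrays against 3 can give, so the test draws no conclusion. The difference of Sulf2 was known when the genes were listed, so this pair is a description.

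The start sites of genes that passed are shown because the study concerns the polymerase that is loaded at them. RefSeq promoter windows (GRCm38.p6) were matched by symbol for 7 of the 9 genes, with 9 windows in all, and Ext1 and Sulf1 were not matched. The 250 bases before each start are printed 5′ to 3′, with capitals marking GGGCGG and TATAAA, each searched on both strands (as CCGCCC and TTTATA on the other strand). Matches to one motif cannot share bases with matches to the other. Sulf2 has 2 annotated starts, and the upstream window holds 1 of each motif and the downstream window neither.
Sulf2 upstream start, chr2:166155684-166155933, minus strand: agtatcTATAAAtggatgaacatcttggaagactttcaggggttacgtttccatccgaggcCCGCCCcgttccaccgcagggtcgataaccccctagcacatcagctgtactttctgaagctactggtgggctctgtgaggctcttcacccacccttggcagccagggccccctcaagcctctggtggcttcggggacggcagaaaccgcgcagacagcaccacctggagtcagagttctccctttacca
Sulf2 downstream start, chr2:166155286-166155535, minus strand: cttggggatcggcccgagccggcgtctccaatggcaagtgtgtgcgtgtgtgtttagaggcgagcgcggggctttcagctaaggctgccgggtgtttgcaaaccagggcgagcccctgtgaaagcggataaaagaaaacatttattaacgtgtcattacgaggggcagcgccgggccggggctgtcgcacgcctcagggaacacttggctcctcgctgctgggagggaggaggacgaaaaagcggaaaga
Of 32851 such windows in the table, 32.7% hold GGGCGG and 12.4% hold TATAAA. The array has a single probe set for Sulf2, so the use of either start cannot be read from these data. G and C make up 57.2% of the upstream and 60.0% of the downstream window, against a median of 52.4% over all windows.

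Of the 6-O-sulfotransferase genes, whose enzymes add the sulfate that SULF enzymes remove, Hs6st1 and Hs6st2 rose. Another of them, Hs6st3, did not pass, and its groups overlapped (log2 difference -0.08, adjusted p = 0.845 from limma). Hs6st1 had log2 intensities of 6.59, 6.55 and 6.34 in wild type cells and 7.17, 7.35 and 7.04 in 8KR cells. The lowest 8KR array lay above the highest wild type array. The mean went from 6.50 ± 0.13 to 7.19 ± 0.15 (SD, n = 3 each), a log2 difference of 0.69 (standard error 0.12, 95% interval 0.41 to 0.97, adjusted p = 0.0325 from limma). Hs6st2 had log2 intensities of 5.50, 5.51 and 5.84 in wild type cells and 6.23, 6.35 and 6.21 in 8KR cells. Here too the groups did not overlap, although wild type replicate 3 lay closer to the 8KR arrays than the other two. Its mean went from 5.62 ± 0.19 to 6.26 ± 0.07 (SD, n = 3 each), a log2 difference of 0.64 (standard error 0.12, 95% interval 0.36 to 0.93, adjusted p = 0.0415 from limma).

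Within arrays, Hs6st2 minus Hs6st1 was -0.87 ± 0.33 in wild type and -0.93 ± 0.09 in 8KR cells on the log2 scale (SD, n = 3 each). The change between groups, -0.05, was smaller than the spread (p = 1 in a two-sided exact permutation test), which does not show that the 2 genes changed equally. Their windows differ in letters. The Hs6st1 window holds 6 copies of GGGCGG and 76.4% G and C. Hs6st2 has 2 annotated starts, of which the upstream window holds 1 TATAAA and 50.0% G and C, and the downstream window holds neither motif and 72.0% G and C.
Hs6st1 start, chr1:36068150-36068399, plus strand: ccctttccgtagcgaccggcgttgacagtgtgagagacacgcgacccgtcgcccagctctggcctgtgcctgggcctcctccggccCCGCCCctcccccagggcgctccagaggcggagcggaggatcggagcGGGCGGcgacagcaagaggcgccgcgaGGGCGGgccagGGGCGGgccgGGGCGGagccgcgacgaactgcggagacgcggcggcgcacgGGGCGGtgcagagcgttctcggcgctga
Hs6st2 upstream start, chrX:51681603-51681852, minus strand: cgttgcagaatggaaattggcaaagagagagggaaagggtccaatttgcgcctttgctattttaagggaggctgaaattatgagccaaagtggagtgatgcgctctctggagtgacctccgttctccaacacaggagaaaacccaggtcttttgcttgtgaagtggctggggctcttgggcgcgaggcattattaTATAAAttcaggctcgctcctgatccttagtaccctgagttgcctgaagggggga
Hs6st2 downstream start, chrX:51680478-51680727, minus strand: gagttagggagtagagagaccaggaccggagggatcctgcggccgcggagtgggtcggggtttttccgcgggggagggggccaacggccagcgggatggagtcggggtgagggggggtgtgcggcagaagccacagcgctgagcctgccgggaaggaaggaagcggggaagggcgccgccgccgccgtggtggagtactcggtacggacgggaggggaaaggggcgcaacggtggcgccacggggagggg
These matches describe the letters of the windows and were not tested against expression.

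Of the polymerase genes, Ext1 fell and Ext2 did not pass. Ext1 had log2 intensities of 8.63, 8.58 and 8.49 in wild type cells and 8.15, 8.16 and 8.10 in 8KR cells. The groups did not overlap, and the spread within each was small. The mean went from 8.56 ± 0.07 to 8.14 ± 0.03 (SD, n = 3 each), a log2 difference of -0.43 (standard error 0.08, 95% interval -0.61 to -0.24, adjusted p = 0.0370 from limma). Ext2, its partner in the complex, had log2 intensities of 8.02, 8.07 and 7.91 in wild type cells and 8.11, 8.27 and 8.06 in 8KR cells. These groups overlapped, with a log2 difference of 0.15 (95% interval -0.07 to 0.37, adjusted p = 0.435 from limma).

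Ndst2, Hs2st1 and Hs3st1 did not pass, and their groups overlapped. Ndst2, which converts N-acetyl to N-sulfate groups, had log2 intensities of 6.57, 6.63 and 6.51 in wild type and 6.53, 6.42 and 6.52 in 8KR cells (log2 difference -0.08, 95% interval -0.26 to 0.11). Hs2st1, the 2-O-sulfotransferase, had 7.86, 8.07 and 7.95 in wild type and 8.04, 8.06 and 8.13 in 8KR cells (log2 difference 0.12, 95% interval -0.09 to 0.33). Hs3st1, which adds the rare 3-O sulfate that antithrombin binds, had 3.36, 3.66 and 3.55 in wild type and 3.39, 3.48 and 3.36 in 8KR cells (log2 difference -0.11, 95% interval -0.36 to 0.13). Hs3st1 lay just above the background level on every array, so a fall below that level could not be read. For the 5 genes that did not pass, the intervals lay between -0.36 and 0.37, so larger log2 differences than these lie outside them.

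**Figure D2:**
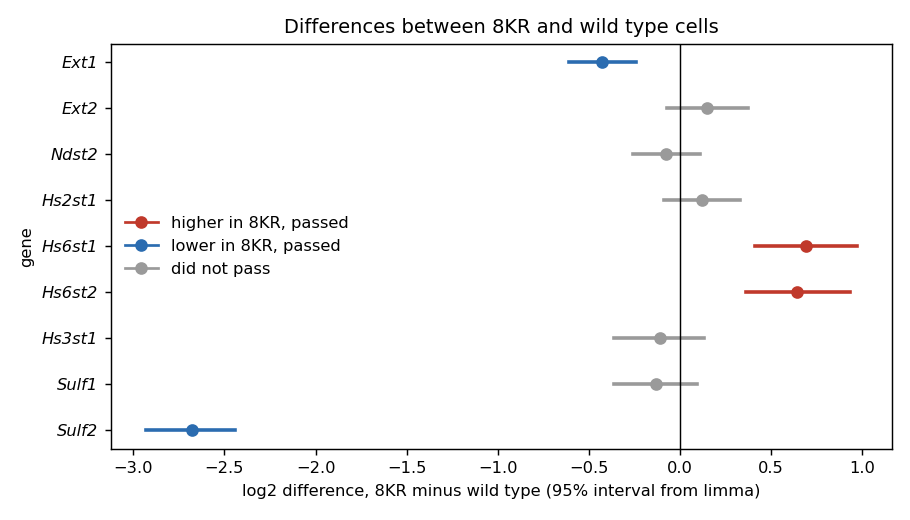
Log2 difference between 8KR and wild type cells (horizontal axis, 8KR minus wild type) for each of the 9 genes (vertical axis), with points for the estimate and lines for the 95% interval from limma. Sulf2 stands at -2.68, Ext1 at -0.43, Hs6st1 at 0.69 and Hs6st2 at 0.64, and the grey intervals of the other 5 genes all include 0.

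The calls of Ext1 and Hs6st1 needed all 6 arrays, and that of Hs6st2 was lost without most single arrays. Calls over all genes also fell, from 924 on 6 arrays to 274 to 293 with 1 left out. With 1 array left out, Ext1 never passed and had log2 differences of -0.47 to -0.39 with adjusted p-values of 0.0819 to 0.12 from limma, and Hs6st1 never passed and had 0.61 to 0.77 with adjusted p-values of 0.0669 to 0.103. Hs6st2 had 0.58 to 0.75 and passed without wild type replicate 3 (adjusted p = 0.0410 from limma) but did not pass without one of the other 5 arrays, where the adjusted p reached 0.128. The sizes moved little. With no filter on low values, Ext1 and Hs6st2 had adjusted p-values of 0.0540 and 0.0548 from limma and did not pass, while Hs6st1 and Sulf2 did. On the 6 arrays the groups did not overlap for these 4 genes, nor for 29.7% of all genes tested.

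**Figure D3:**
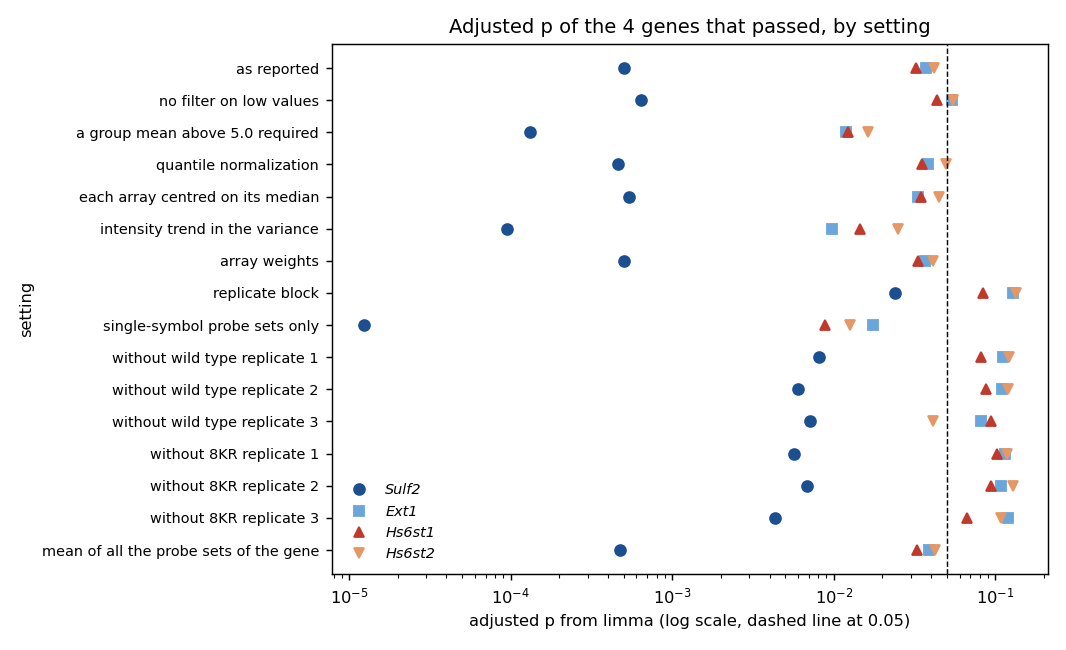
Adjusted p from limma (horizontal axis, log scale) of Sulf2, Ext1, Hs6st1 and Hs6st2 under each setting (vertical axis), with the threshold of 0.05 as a dashed line. The row named as reported holds the settings used in the text. Sulf2 lies left of the line under every setting shown. Ext1, Hs6st1 and Hs6st2 lie right of it with the replicate number as a block, and Ext1 and Hs6st2 with no filter on low values. With 1 array left out, these genes lie right of it, apart from Hs6st2 without wild type replicate 3.

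Of the other genes of heparan sulfate metabolism, 6 of 53 tested passed, or 11.3%, against 5.39% of all genes tested. Of these 6, 3 were higher and 3 lower in 8KR cells, and all are genes of sulfate supply or core proteins, described below. The median log2 difference of the 53 was -0.08. The lists were chosen with earlier results known, so these shares are a description. Of 13 further polymerases and modifying enzymes, 10 were tested and none passed by limma, although 3 had an unadjusted p under 0.05. Hs3st2, another 3-O-sulfotransferase, had the smallest adjusted p of these (log2 difference 0.41, adjusted p = 0.110 from limma). Of 7 enzymes of the linkage region, which joins the chain to its core protein, none passed by limma and 3 had an unadjusted p under 0.05, among them the galactosyltransferase gene B4galt7 (log2 difference 0.58, adjusted p = 0.139). Of 11 genes of heparan sulfate degradation, none passed by limma and 4 had an unadjusted p under 0.05. Sgsh, a lysosomal sulfatase of N-sulfate groups, had a log2 difference of -0.35 (adjusted p = 0.0736 from limma). Over all genes tested, 21.8% had an unadjusted p under 0.05.

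Genes that supply sulfate differed in both directions. Of 12 genes of sugar and sulfate supply, Papss1 rose, Papss2 fell and 10 did not pass. Both encode enzymes that make PAPS, the sulfate donor of all sulfotransferases of the chain. Papss2 had log2 intensities of 6.39, 6.51 and 6.31 in wild type cells and 5.10, 4.74 and 5.18 in 8KR cells, a log2 difference of -1.39 (standard error 0.14, adjusted p = 0.00715 from limma). Papss1 had log2 intensities of 6.61, 6.54 and 6.54 in wild type cells and 6.99, 7.06 and 6.99 in 8KR cells, a log2 difference of 0.45 (standard error 0.07, adjusted p = 0.0271 from limma). Neither gene overlapped between groups. Within arrays, Papss2 minus Papss1 was -0.16 ± 0.11 in wild type and -2.00 ± 0.27 in 8KR cells on the log2 scale (SD, n = 3 each), a change of -1.84 with p = 0.1 in a two-sided exact permutation test, the smallest possible here. This pair was set side by side after its values were seen. With any 1 array left out, Papss1 did not pass (adjusted p from 0.0783 to 0.0965 by limma), and Papss2 still did.

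The core proteins that carry the chains also differed in both directions. Of 13 genes, Gpc6 (log2 difference 2.08) and Sdc3 (1.08) rose, Gpc4 (-2.75) and Sdc2 (-0.80) fell and 9 did not pass. The standard errors of these 4 were 0.08 to 0.16, and all 4 still passed with any 1 array left out. Of 16 enzymes of chondroitin and dermatan sulfate, a related chain that also draws on PAPS, 1 passed, or 6.25%, near the 5.39% of all genes tested. The share was 30.8% of core protein genes and 16.7% of sugar and sulfate supply genes. It was 0% of the further modifying, linkage region and degradation genes. The lists were chosen with earlier results known, and the contrast between these shares was not tested. Csgalnact1, which starts the chondroitin chain, fell by 0.68 on the log2 scale (adjusted p = 0.0475 from limma), and with 1 array left out it passed only without wild type replicate 2. The median log2 difference of the 16 was -0.03.

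**Figure D4:**
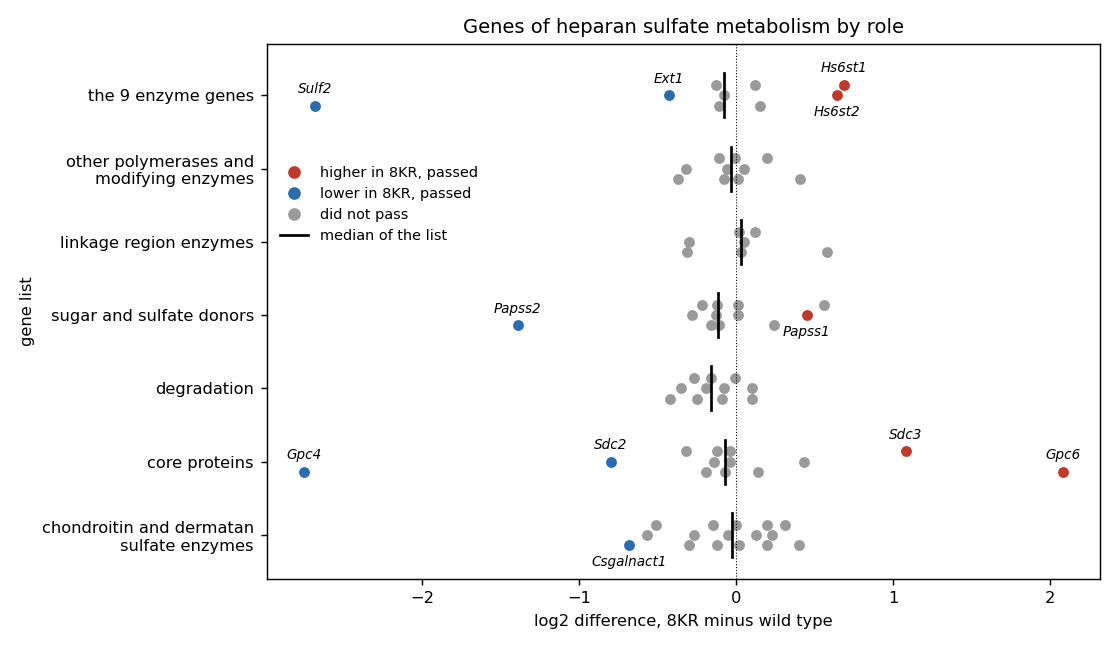
Log2 difference between 8KR and wild type cells (horizontal axis) of each tested gene, by role in heparan sulfate metabolism or in the chondroitin and dermatan sulfate pathway (vertical axis). Each point is 1 gene, the vertical bars are list medians, and genes that passed are red (higher in 8KR) or blue (lower in 8KR) and named. The medians lie between -0.16 and 0.03, and the largest differences are those of Gpc4, Sulf2 and Gpc6.

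The 9 genes were also set beside their tested neighbours on the chromosome, as ordered in the RefSeq table. Among the 10 tested genes on each side of Sulf2, the median log2 difference was 0.01, none was called lower and 1 was called higher, Ptgis with 0.47. Around Hs6st2 the median was 0.10, and the single neighbour called was Gpc4, the second tested gene on one side, which fell by 2.75 on the log2 scale while Hs6st2 rose. Around Hs6st1, none of the 20 neighbours was called, but 17 lay above 0, with a median of 0.19. Hs6st1 itself lay higher than that, at 0.69. Such a lean was not particular to Hs6st1, since 16 of 20 neighbours lay above 0 around Hs2st1 (median 0.18, 2 called higher) and 16 of 20 lay below 0 around Hs3st1 (median -0.18, none called), and neither of these genes passed. Around Ext1 the median was -0.10 with 13 of 20 neighbours below 0, and 1 was called, Eif3h with -0.37. Around Sulf1, 3 of 20 neighbours rose (Ncoa2, Tram1 and Eya1) and 1 fell (Cpa6), while Sulf1 did not pass. Around Ext2, 1 neighbour was called, Chst1 with -1.1, and around Ndst2, 1 was called, Plau with 0.62. Neither Ext2 nor Ndst2 passed. Over all genes tested, 5.39% were called and the median log2 difference was 0.01, while the share above 0 was not counted.

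**Figure D5:**
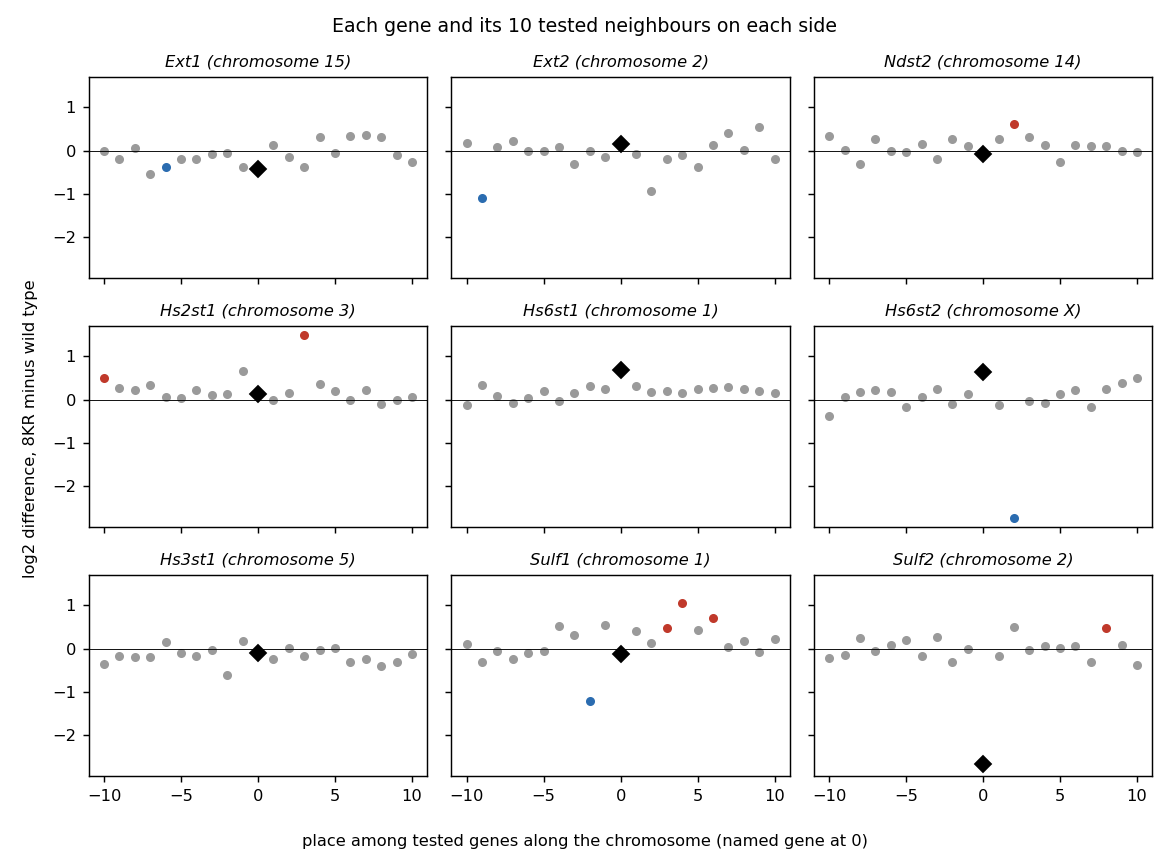
Log2 difference between 8KR and wild type cells (vertical axis) of each of the 9 genes (black diamond at 0) and of the 10 tested genes on each side of it (points), in their order along the chromosome (horizontal axis). Red points were called higher and blue points lower in 8KR cells, and grey points did not pass. Sulf2 stands alone at -2.68 among neighbours near 0, while 17 of the 20 neighbours of Hs6st1 and 16 of those of Hs2st1 lie above 0, and 16 of those of Hs3st1 lie below it.

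The genes whose centred values over the 6 arrays lay nearest to those of Sulf2 were Casp4, an inflammatory caspase gene, Hoatz, and Crabp1, a retinoic acid-binding protein gene. Their Euclidean distances to Sulf2 were 0.270, 0.289 and 0.307 in log2 units. Their log2 differences were -2.58, -2.67 and -2.69, which their choice by nearness to Sulf2 fixes, and the 3 genes are named as a description.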

How the data were processed

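Expression was measured on Affymetrix Mouse Gene 1.0 ST arrays in 3 wild type and 3 8KR samples, grouped by their titles. Sample names hold the letter A for wild type and C for 8KR, whose meaning is not stated, so whatever the letters mark cannot be told apart from the groups. The authors deposited a table of normalized log2 intensities with 1 value for each probe set on each array. The tool listed in the submitters' processing notes is Affymetrix Power Tools 1.12.0, while the sources used here do not give the normalization method or the genome build. Of 35557 probe sets, 7014 with no group mean above 3.0 were removed, following the methods. The remaining 28543 were fitted without covariates by lmFit and eBayes (limma 3.58.1, R 4.3.3), with Benjamini-Hochberg adjustment over all of them. A gene was called at an adjusted p under 0.05 and was represented by its single-symbol probe set with the highest mean. The number of arrays limits the precision. Symbols came from the platform annotation, updated with RefSeq (GRCm38.p6), which was also used for the order of genes. The members and lists were chosen with earlier results of these data known. Text names all members, called genes of each list or otherwise the one with the smallest adjusted p, Polr2a and the 3 genes nearest to Sulf2. Ptgis, Eif3h and the other neighbours, Hs6st3 and the Y-linked genes were named after their values were seen. The fit was tested on simulated data. Alternatives covered the filter, normalization, variance model, array weights, probe sets, the replicate number as a block and each array left out. Figures were drawn with matplotlib 3.10.9.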

Additional observations from a re-analysis of the deposited data

How the results depend on the processing

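Sulf2 kept its direction and its call under all 9 settings other than leaving out an array (log2 difference -2.71 to -2.68), and no member changed direction under any setting tried. Of the 9 members, 4 passed with the main settings, which are those used in the text above and are not counts given by the study. The count was 2 with no filter on low values and 1 with a block on the replicate number. Leaving out 1 array gave 1 to 2. Of the other 53 heparan sulfate genes, 6 passed with the main settings and 9 of the 36 with a group mean above 5.0. The count was 8 over single-symbol probe sets and 7 with an intensity trend in the variance. It was 5 without any 1 array and 1, Gpc4, with the block. For the chondroitin and dermatan sulfate enzymes the count was 1 with the main settings. It was 2 of the 12 with a group mean above 5.0 and 2 with quantile normalization. The count was 3 with an intensity trend in the variance and 3 over single-symbol probe sets. It was 0 by limma with no filter and 0 with the block (5 and 3 had an unadjusted p under 0.05), and leaving out 1 array gave 0 to 1. Deviations of same-numbered arrays correlated at -0.01 to 0.01. Replicate 2 matched its own number best, and replicates 1 and 3 did not. The sources used here do not say whether same-numbered samples were handled together, and these correlations cannot decide it. Over all genes, 924 were called with the main settings (5.39%), 692 with no filter (3.47%) and 1736 over group means above 5.0 (17.6%). The trend gave 1528 (8.91%), single-symbol probe sets 1638 (9.55%), the block 63 (0.367%) and leaving out 1 array 274 to 293 (1.59% to 1.71%). The counts above therefore stand against different shares of all genes. The change of Sulf2 relative to Sulf1 was -2.54 and that of Hs6st2 relative to Hs6st1 was -0.06 with quantile normalization. The causes of these shifts were not tested.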
